A study of Mus musculus with 8 samples.

Results

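The kidney that is left unobstructed when the ureter of the other side is tied off serves as the control in unilateral ureteral obstruction, a surgical model of blocked urine outflow. Its microRNA (miRNA) content was described here from the 4 arrays titled as control kidneys, of 8 arrays in all. Every mouse miRNA name on the array was taken, which gave 611 names. The kidneys came from mice of the outbred ICR strain and were taken 7 days after ligation of 1 ureter. They are therefore contralateral kidneys of operated animals and not kidneys of untouched mice, and sham-operated or untouched mice were not analysed here. All 4 carried the same surgery, strain and time. No allele, drug or age entered the labels. The labels list them as separate samples without saying that they came from separate mice, so the spread between them may be partly technical. The obstructed kidneys were not used.

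RNA was extracted from whole kidneys, and 100 ng of total RNA was labelled with the dye Cy3 and hybridised to an Agilent mouse miRNA array with 1 colour. Each array carried 13715 spots, of which 12220 belonged to 1759 probes for mouse miRNAs. Probe signals were summed for each miRNA. The result is given as its share, the percent of the summed signal of all mouse miRNAs on that array. A miRNA was called detected on an array when at least 1 of its probes had over 50% of its spots marked well above background. Signal depends on the probe as well as on the number of molecules, so an order of shares is an order of array signal. Among detected miRNAs with several probes, the brightest probe was a median of 2.62 times the dimmest (quartiles 1.76 and 4.58). The total mouse miRNA signal ranged from 238224 in kidney 2 to 325734 in kidney 4. No spot was saturated, and between 228 and 240 miRNAs were detected on each array. In kidney 3 only, 1 miRNA had spots marked as scaled up from a reading at low scanner gain. All 4 arrays lay on 1 slide and were read in 1 scan.

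A miRNA is a short RNA that is cut from a hairpin and loaded into an Argonaute protein, where it pairs with messenger RNAs mainly through its seed, bases 2 to 8 from the 5′ end. miRNAs with the same seed can pair with largely the same sites and are treated as a family. In the kidney, tubule epithelium, vessels, interstitial fibroblasts and blood each bring characteristic miRNAs. Because the whole organ was extracted, fewer cells of a type and less RNA per cell cannot be told apart.

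Mature sequences were found for 343 of the 611 names in RefSeq (build GRCm38.p6), and these carried 92.4% of the signal. They are shown for the members of the brightest seed families, because summed by seed the signal rested on few of them. Seed bases 2 to 8 are in capitals. The let-7 seed, which was the brightest, is shared by 9 detected members.
let-7a: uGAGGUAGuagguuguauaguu
let-7f: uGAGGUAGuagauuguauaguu
let-7c: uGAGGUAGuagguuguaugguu
let-7b: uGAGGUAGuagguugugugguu
let-7g: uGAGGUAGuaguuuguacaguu
let-7d: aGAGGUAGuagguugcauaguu
let-7i: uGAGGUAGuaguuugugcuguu
let-7e: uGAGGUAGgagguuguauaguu
miR-98: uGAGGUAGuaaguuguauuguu
The next seeds belonged to miRNAs that stood alone in their family among the detected names.
miR-21: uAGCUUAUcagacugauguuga
miR-22: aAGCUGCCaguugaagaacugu
miR-451: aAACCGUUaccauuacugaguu
miR-126-3p: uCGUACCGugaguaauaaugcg
The other families below hold 2 or more detected members with 1 seed.
miR-29a: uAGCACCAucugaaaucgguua
miR-29c: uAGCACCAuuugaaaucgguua
miR-29b: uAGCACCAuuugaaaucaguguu
miR-30a: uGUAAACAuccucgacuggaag
miR-30c: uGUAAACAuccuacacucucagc
miR-30e: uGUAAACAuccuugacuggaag
miR-15a: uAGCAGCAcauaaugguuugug
miR-16: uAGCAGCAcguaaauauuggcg
miR-26a: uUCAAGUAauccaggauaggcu
miR-26b: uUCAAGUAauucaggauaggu
miR-200b: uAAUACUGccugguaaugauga
miR-429: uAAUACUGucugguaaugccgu
miR-200c: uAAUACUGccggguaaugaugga
miR-10a: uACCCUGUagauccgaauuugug
miR-10b: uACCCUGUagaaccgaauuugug
miR-107: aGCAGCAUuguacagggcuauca
miR-103: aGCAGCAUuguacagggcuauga
The pair miR-200a and miR-141 comes from the same transcripts as miR-200b, miR-429 and miR-200c and has a seed of its own.
miR-200a: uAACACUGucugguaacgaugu
miR-141: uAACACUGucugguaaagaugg
The array names miR-23b, miR-30b, miR-30d and miR-709 are named without a sequence. Family members can be nearly identical. Of the 36 pairs of let-7 members, 4 differed at 1 position and the most different pair at 6. The pairs miR-29a and miR-29c, miR-30a and miR-30e, miR-10a and miR-10b, and miR-107 and miR-103 also differed at 1 position. How far the probes separate such pairs was not tested, so the sum over a family is the firmer value.

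The signal of the contralateral kidney was concentrated in a small set of miRNAs. The 10 brightest held 45.8% ± 1.18 (SD, n = 4) of all mouse miRNA signal, and the 30 brightest held 76.4% ± 0.719. The first 12 names, 1.96% of those on the array, reached 50% of the signal, and 57 names reached 90%. A mean share of at least 1% was reached by 29 miRNAs, at least 0.1% by 86 and at least 0.01% by 208. From miR-21, the brightest, to miR-700, the dimmest detected on all 4 arrays at 0.00637% ± 0.00106, the mean share spanned 1064-fold.

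**Figure D1:**
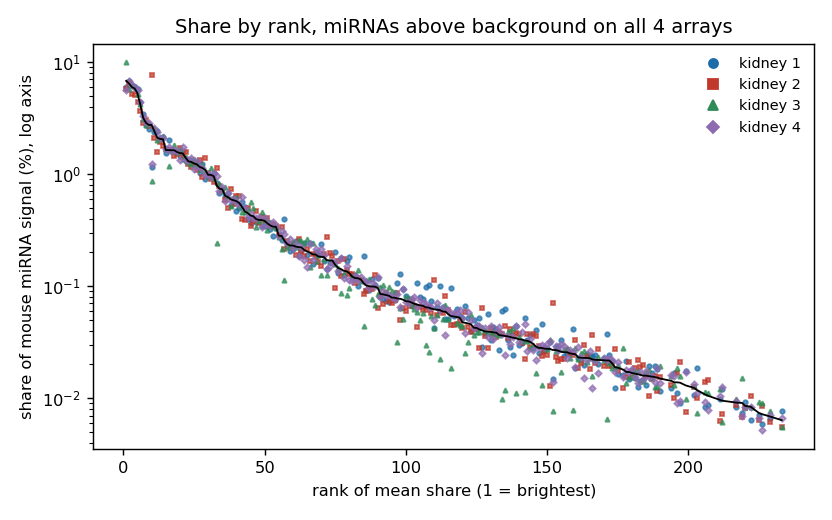
Share of mouse miRNA signal (percent, log axis) against the rank of the mean share, for the 207 miRNAs detected on all 4 arrays. Each point is 1 kidney and the black line is the mean of 4. The points follow the line closely over the first ranks, apart from miR-21 in kidney 3 and miR-451 in kidney 2, and spread more at the dim end.

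Detection split the array sharply. Of the 611 mouse miRNAs, 207 were detected on all 4 arrays (33.9%), 356 on none, and 48 on some arrays only. The 207 held 99.6% ± 0.0864 of the signal, and the summed share of those detected on none was -0.00976% ± 0.0366, which does not differ from 0 beyond its spread. Among the 48 in between, the brightest were miR-697 at 0.0218%, miR-1906 at 0.0186%, miR-703 at 0.0149%, miR-190b at 0.0149% and miR-760 at 0.0146%. The dimmest 5 of those detected on all 4 were miR-24-2*, miR-181d, miR-9, miR-335-5p and miR-700, between 0.00637% and 0.00839%. The levels of both sets overlapped, so near 0.01% a name was found on some arrays and missed on others. Requiring every probe of a miRNA on every array left 142 names.

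At the top of the order, miR-21, a miRNA studied for its rise in injured and fibrotic kidneys, had shares of 5.94%, 5.70%, 9.90% and 5.58% in kidneys 1 to 4. Kidney 3 stood far above the other 3, which lay close together. The mean was 6.78% ± 2.09. The summed signals of miR-21 before scaling to the total were 16771, 13572, 32240 and 18179, and kidney 3 was again the highest. Whether miR-21 was the miRNA with spots scaled up from a low-gain reading in kidney 3 was not tested. Without kidney 3 the mean of miR-21 was 5.74%, and miR-21 came behind miR-22 and let-7a. The first rank of miR-21 therefore rested on kidney 3.

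The next rank was held by miR-22, which is cut from a non-coding transcript of its own and is abundant in many tissues, with shares of 6.72%, 6.51%, 5.70% and 6.70%. Kidney 3 was the lowest. The mean, 6.41% ± 0.481, lay within 1 SD of that of miR-21, so the order of these 2 does not hold against the spread. Members of the let-7 family followed: the means were 5.97% ± 0.497 for let-7a, 5.79% ± 0.478 for let-7f and 5.24% ± 0.611 for let-7c, and these neighbours also overlapped. In let-7a the shares were 6.27%, 5.22%, 6.19% and 6.19%, with kidney 2 low and the other 3 nearly equal. Below them came let-7b at 4.16% ± 0.375, let-7g at 3.17% ± 0.251, miR-30a at 2.86% ± 0.152 and miR-29a at 2.74% ± 0.170.

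The tenth name by mean share, miR-451, was the only 1 of the first 10 that was not in the 10 brightest of every array. It is a miRNA of red blood cells that is matured by Argonaute 2 without Dicer. Its shares were 1.15%, 7.71%, 0.865% and 1.23%. Kidney 2 held nearly all of the excess and had miR-451 as its brightest miRNA, while in the other kidneys it ranked between 25 and 32. The mean, 2.74% ± 3.32, was 1.08% without kidney 2. In its place, miR-126-3p or miR-192 entered the 10 brightest of the other arrays.

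The ranks from 11 to 30 were filled by miR-126-3p, miR-192, miR-26a, let-7d, miR-23a, miR-709, miR-200b, miR-23b, miR-24, miR-10a, miR-107, miR-15a, miR-26b, miR-29c, miR-10b, miR-125b-5p, miR-30c, miR-16, miR-29b and miR-200a, with mean shares falling from 2.39% to 0.984%. From miR-23a to miR-107 the means fell only from 1.64% to 1.53%, less than the spread of most of these miRNAs, so their order cannot be read. Of all names, 27 were among the 30 brightest of every array and 33 among those of at least 1.

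**Figure D2:**
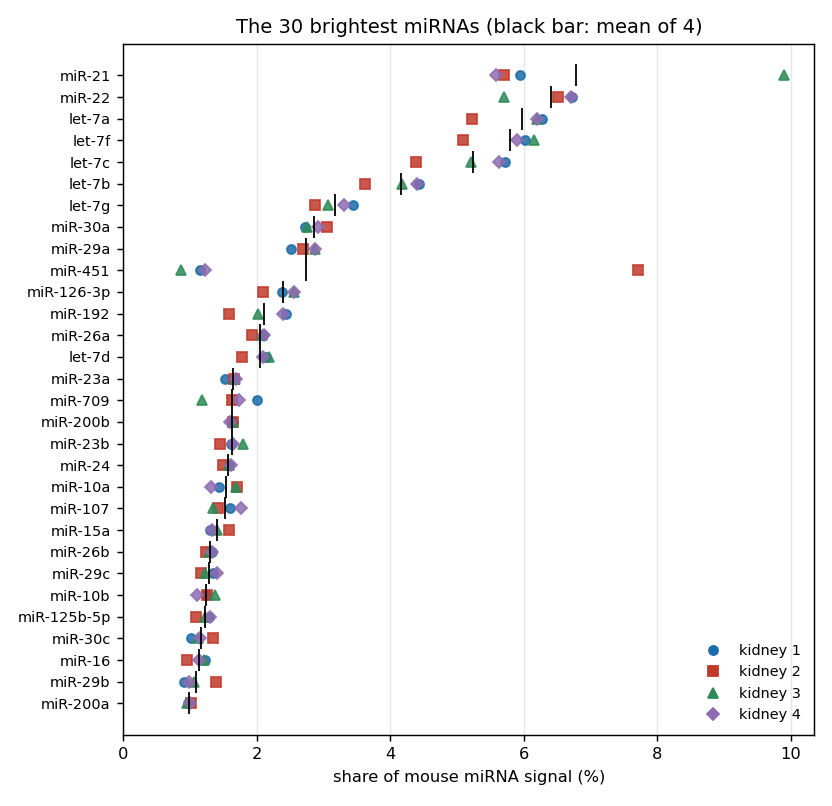
Share of mouse miRNA signal (percent) of the 30 brightest miRNAs in each kidney, with a black bar at the mean of 4. In most rows the 4 points lie close together. The exceptions a reader should see are miR-21, at 9.90% in kidney 3, and miR-451, at 7.71% in kidney 2.

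Summed by seed, the 168 detected miRNAs with a sequence fell into 122 seeds, and 26 of these had at least 2 detected members. The 12 brightest seeds held 70.9% of the signal. Names without a sequence, such as miR-23b at 1.63%, miR-30b and miR-30d, were not counted in any seed. The choice of the 12 and their order therefore hold for matched names only. The let-7 family, whose maturation is blocked by LIN28 in embryonic cells, held 29.8%, 24.6%, 29.1% and 29.3%. Kidney 2 was the low array, and the mean was 28.2% ± 2.40. With miR-451 taken out of the total the let-7 shares became 30.2%, 26.7%, 29.3% and 29.6%, and kidney 2 remained the lowest. All 9 let-7 members on the array were detected on all 4 arrays, against 33.9% of all mouse miRNAs. They ran from let-7a down to let-7i at 0.982% ± 0.108, let-7e at 0.639% ± 0.0861 and miR-98 at 0.225% ± 0.0252.

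The miR-29 family, which targets collagen and other matrix messenger RNAs, held 5.11% ± 0.236. All 3 members were detected on every array, against 33.9% of all mouse miRNAs. By share, miR-29b was highest in kidney 2, at 1.39% against 0.908% to 1.07% elsewhere. Kidney 2 also led with miR-451 out of the total (1.51%), but in unscaled signal miR-29b was highest in kidney 3 (3470, against 3311 in kidney 2). miR-29c had 1.34%, 1.17%, 1.23% and 1.40%. Its lowest kidney was kidney 2 on the full total and kidney 3 with miR-451 out of it (1.24%, against 1.26% in kidney 2). The miR-30 family, which is abundant in podocytes and other kidney epithelium, held 5.14%, 6.24%, 5.24% and 5.59%. Kidney 2 was the highest by share, whereas in unscaled signal kidney 4 was (18224, against 14873 in kidney 2). The mean was 5.55% ± 0.499 over all 5 members, from miR-30a at 2.86% to miR-30b at 0.396% ± 0.0547. The 3 members with a printed sequence held 4.61% ± 0.386.

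Among the smaller seed families, those of miR-15 and miR-16 (3.59% ± 0.124, 5 detected members) and of miR-26 (3.35% ± 0.123) had narrow spreads. Members of the miR-15 and miR-16 family are known for slowing the cell cycle. The seed of miR-200b, miR-429 and miR-200c held 2.79% ± 0.0685. The miR-10 family, whose genes lie in the Hox clusters, held 2.78% ± 0.286, and miR-107 with miR-103, which lie in introns of pantothenate kinase genes, held 2.15% ± 0.245. Neighbouring families in this order, such as miR-200b and miR-10, did not differ beyond their spread.

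**Figure D3:**
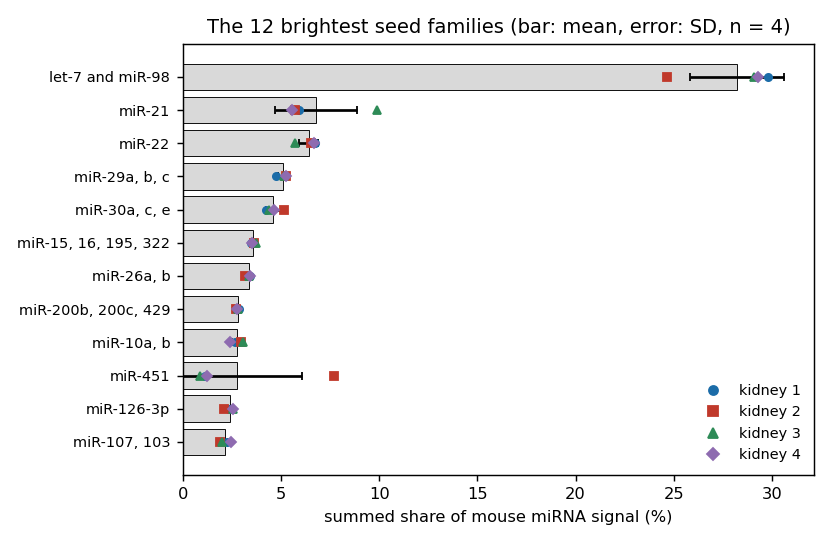
Summed share of mouse miRNA signal (percent) of the 12 brightest seed families, built only from miRNAs with a sequence. Bars are means, error bars are SD over 4 kidneys (the lower end for miR-451 is cut at 0) and points are kidneys. The let-7 bar, at 28.2%, is several times any other. miR-451 in kidney 2 and miR-21 in kidney 3 lie far above the other kidneys, and let-7 in kidney 2 lies below them.

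The sequences had a further feature that was not used to choose them. A first base of U, the base that Argonaute proteins favour at the 5′ end, occurred in 84 of the 168 detected miRNAs with a sequence (50%), but these carried 74.1% of the signal of matched miRNAs. Of the 46 matched names among the 50 brightest, 35 began with U. A first base of A was found in 39 of the 168, C in 30 and G in 15. The median GC content was 40.9% among the 46 and 45.5% among all 168. These are descriptions, and probe brightness also depends on base content.

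Markers of the kidney tubule were listed with earlier results of these data known, so their detection is no check of kidney identity. Of 8 miRNAs listed for the kidney tubule, 7 (87.5%) were detected on all 4 arrays, against 33.9% of all mouse miRNAs, and miR-215 was not. Of these, miR-192 is enriched in tubule epithelium and had shares of 2.43%, 1.59%, 2.02% and 2.39%, lowest in kidney 2. Its partner from the same transcript, miR-194, had 0.557%, 0.400%, 0.461% and 0.620%, and was also lowest there. The Hox-cluster miRNAs miR-10a (1.54% ± 0.188), miR-10b (1.24% ± 0.109), miR-196a (0.463% ± 0.0536) and miR-196b (0.184% ± 0.0149) were present at graded levels. miR-204, a miRNA of several epithelia, was dim at 0.0457% ± 0.00784. The tubule list as a whole held 6.09% ± 0.378.

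The miR-200 family restrains the ZEB transcription factors and so marks epithelium. All 5 members were detected on all 4 arrays, against 33.9% of all mouse miRNAs. Their summed share was 3.87%, 3.81%, 3.86% and 3.80%, a CV (the SD as a percent of the mean) of 0.900%, the smallest of the lists with detected members. This depended on the total: with miR-451 out of it, the sums were 3.92%, 4.12%, 3.89% and 3.85%, with kidney 2 highest, and the miR-26 family was steadier. miR-200b had 1.65%, 1.64%, 1.64% and 1.60%, the smallest CV of any miRNA of at least 0.1% on the full total. The family has 2 gene clusters. The cluster on chromosome 4 holds miR-200b (chr4:156055685-156055706, minus strand), miR-200a and miR-429 in GRCm38, at 1.63%, 0.984% and 0.954%. The cluster on chromosome 6 holds miR-200c (chr6:124718324-124718346, minus strand) and miR-141, at 0.204% ± 0.0482 and 0.0592% ± 0.0193. miR-200c ran at 0.189%, 0.213%, 0.265% and 0.149%, and miR-141 at 0.0508%, 0.0808%, 0.0682% and 0.0369%. Both were lowest in kidney 4 and spread more widely, in proportion, than the chromosome 4 members.

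Other clusters also held members at unlike levels. let-7a, let-7f and let-7d lie together on chromosome 13 (let-7a at chr13:48538239-48538260, minus strand), and let-7d, at 2.05% ± 0.182, was the dimmest of them. The let-7a and let-7f sequences are also encoded elsewhere, so these shares are not those of 1 cluster. miR-221, at 0.389% ± 0.0196, and miR-222, at 0.0205% ± 0.00164, lie within 10 kb of each other on the X chromosome and were chosen after their values were seen. In the miR-23, miR-24 and miR-27 clusters, miR-23a, miR-23b and miR-24 lay between 1.57% and 1.64%. There miR-27a and miR-27b were lower, at 0.741% ± 0.0651 and 0.584% ± 0.0265. The miR-24 sequence is encoded on chromosomes 8 and 13, so its share is not that of 1 cluster.

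The miR-17 clusters promote proliferation. Of 12 members on the array, 9 (75%) were detected on all 4 arrays, against 33.9% of all mouse miRNAs. The list had a summed share of 1.34% ± 0.165. The brightest was miR-92a at 0.388% ± 0.0582, followed by miR-19b at 0.223% and miR-20a at 0.192%. miR-17 itself was not detected on any array, at 0.00134% ± 0.000293, although its neighbours in the chromosome 14 cluster were.

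Markers of other cells in the organ were present. The endothelial miR-126-3p, which lies in an intron of Egfl7, had 2.37%, 2.09%, 2.56% and 2.56%, lowest in kidney 2. Of the fibroblast and fibrosis group, all 4 names were detected on all 4 arrays, against 33.9% of all mouse miRNAs. Besides miR-21 these were miR-199a-3p (0.398%, 0.379%, 0.497% and 0.404%), miR-214 (0.0919%, 0.0944%, 0.116% and 0.0961%) and miR-199a-5p (0.0768%, 0.0687%, 0.101% and 0.0907%). All were highest in kidney 3. miR-199a and miR-214 are made from 1 transcript of mesenchymal cells. The list summed to 7.38% ± 2.16, of which miR-21 was the bulk. With miR-21 and miR-451 out of both list and total, it held 0.610%, 0.626%, 0.800% and 0.634%, again highest in kidney 3. miR-34a, which p53 induces, was also highest in kidney 3, at 0.559% against 0.343% to 0.437%, as was miR-31, at 0.0151% against 0.00678% to 0.00745%. The last 2 were singled out after their values were seen.

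The blood cell markers set kidney 2 apart. miR-486, an erythroid miRNA, had 0.0149%, 0.0711%, 0.00769% and 0.0140%. miR-144, made from the same transcript as miR-451, was detected in kidney 2 only, at 0.0322% against 0.00169% to 0.00187%. All 3 erythroid names were thus highest in kidney 2. Relative to the mean log2 share of the other 3 kidneys, miR-451 was 7.21-fold and miR-486 6.08-fold higher. Of 7 leukocyte names, 5 (71.4%) were detected on all 4 arrays, against 33.9% of all mouse miRNAs. In this group miR-142-3p, a general blood cell miRNA, had 0.0420%, 0.114%, 0.0427% and 0.0503%, and the myeloid miR-223 had 0.163%, 0.186%, 0.163% and 0.163%. By share both were highest in kidney 2, as were miR-146a at 0.125% and miR-155 at 0.0274%, while miR-342-3p was lowest there, at 0.0129% against 0.0318% to 0.0330%. The whole leukocyte list held 0.475% in kidney 2 and 0.336% to 0.369% in the others. These shares rest on the total, which was lowest in kidney 2. In unscaled signal the 3 erythroid names and miR-142-3p (119, 271, 139 and 164) were still highest in kidney 2. miR-223 was lowest there (460, 443, 532 and 529), miR-146a was highest in kidney 4 (327), miR-155 in kidney 3 (76.7) and the leukocyte list in kidney 4. What part residual blood had in any of the low and high values of kidney 2 was not tested. With miR-451 out of the total, kidney 2 was still the lowest for miR-192, at 1.72% against 2.04% to 2.46%.

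Markers of tissues outside the kidney were sought with the same rule, against the 33.9% of all mouse miRNAs detected on all 4 arrays. The liver miRNA miR-122 was not detected on any array, nor were any of the 4 pancreas names on all 4, though miR-375 was detected on 2. Of 12 names of embryonic stem cells none was detected on all 4 arrays, and miR-290-5p was detected on 2. Of 7 striated muscle names, only miR-1 was detected on all 4, at 0.00968% ± 0.00249. Of 5 brain names, miR-128 (0.0269% ± 0.00279) and miR-9 (0.00721% ± 0.00196) were, a share of 40% and so near that of the whole array. Both lay below the mean signals of 3 viral names described below, which were 0.0377% to 0.0492% of the mouse total. The smooth muscle miRNA miR-143 was present at 0.230% ± 0.0222, while miR-145, its partner, reached only 0.00702% and was detected on 3 arrays. The hypoxia-induced miR-210 had 0.0238%, 0.0368%, 0.0157% and 0.0124%, highest in kidney 2.

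Large genomic clusters gave mixed results. Of the 34 names in the imprinted Dlk1-Dio3 cluster, which is active mainly in embryo and brain, only miR-494 (2.94% of the names) was detected on all 4, at 0.154% ± 0.0432, lowest in kidney 2 (0.0961%). The intron of Sfmbt2 holds a repetitive cluster found in rodents. Names starting miR-297, miR-466, miR-467 or miR-669 were listed for it, and the position of each was not checked. Of these 39 names, 11 (28.2%) were detected on all 4, a share near the 33.9% of the whole array. They summed to 0.553% ± 0.0955, led by miR-467f at 0.136% ± 0.0373. The names doubted as miRNAs, miR-720 (a fragment of a transfer RNA) and miR-805, held 0.363% ± 0.0389 and 0.0465% ± 0.0116.

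The strand that is loaded into Argonaute could be compared for precursors with both strands on the array, where an asterisk marks the strand named as minor. At least 1 strand was detected on all 4 arrays for 63 of them. For 42 of these only the unstarred strand was, for 6 only the starred strand, and for 15 both. Of the 15, the unstarred strand was brighter for 13, and the median ratio was 24.6. Of all starred names on the array, 22.6% were detected on all 4 arrays, against 36.5% of the other names. Starred names in total held 1.27% ± 0.0790 of the signal. Where a strand was not detected on all 4 arrays, the ratio is a bound. On each array it was set by the higher of that strand's own signal and the lowest signal of a detected miRNA. On this basis miR-21 was at least 1521-fold, let-7f at least 1335-fold, let-7a at least 1203-fold, let-7b at least 958-fold and let-7g at least 732-fold brighter than the starred strand. The strand let-7a* was detected on 3 arrays, so the ratio for let-7a was measured on those. Bounds for miR-29a, miR-15a and miR-26b were at least 633, 323 and 300-fold. With both strands measured, miR-22 was 122-fold, miR-30a 17.0-fold and miR-30e 4.35-fold brighter than its starred strand. Such ratios compare different probes.

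A few precursors ran the other way or were even. The names miR-140 and miR-140* had 0.181% ± 0.0114 and 0.192% ± 0.0217, which did not differ beyond their spread. miR-9* was 1.89-fold brighter than miR-9. Only the starred strand was detected on all 4 arrays for 6 precursors. The lower bounds were 6.95-fold for miR-302c*, 6.08 for miR-674*, 5.03 for miR-467e*, 4.10 for miR-467b*, 3.70 for miR-17* and 3.60 for miR-467a*. miR-467b was detected on 3 arrays. The bound for miR-302c* varied most between arrays, with an SD of its log2 of 1.11. The signals of miR-302c* were 178, 106, 38.9 and 79.3 in kidneys 1 to 4. It belongs to the names low in kidney 3 described below. Of precursors whose strands are named by arm, miR-126-3p was 93.4-fold brighter than miR-126-5p, miR-199a-3p was 5.00-fold brighter than miR-199a-5p, miR-324-5p was 4.14-fold brighter than miR-324-3p, and the arms of miR-340 were level, at a ratio of 1.00.

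The spread between kidneys was small for bright miRNAs and grew towards background. Over the 207 detected miRNAs the median SD of the log2 share was 0.19 (quartiles 0.13 and 0.38). The median CV was 8.76% for the 29 miRNAs of at least 1%, 11.5% for the 57 between 0.1% and 1%, and 17.2% for the 121 below. Besides miR-200b, the smallest values among miRNAs of at least 0.1% were those of miR-652 (2.11%), miR-99a (2.92%), miR-200a, miR-24, miR-26b, miR-331-3p (3.52%), miR-26a, miR-365 (4.43%) and miR-23a. miR-652 had shares of 0.286%, 0.288%, 0.276% and 0.277%. The largest were those of miR-451 (121%), miR-671-5p (56.4%), miR-690 (48.9%), miR-1895 (47.2%), miR-193 (40.9%), miR-574-5p (31.5%), miR-21 (30.8%), miR-500 (29.1%), miR-139-3p (28.7%) and miR-494 (28.0%).

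**Figure D4:**
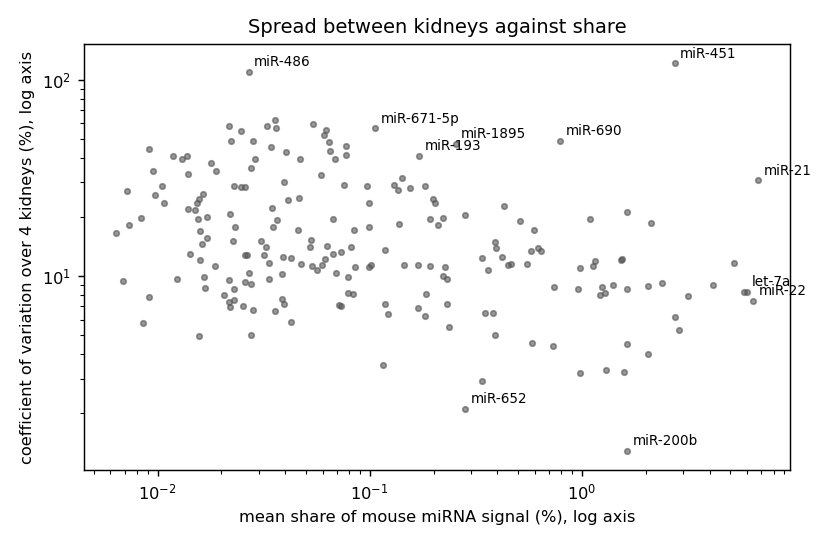
Coefficient of variation over 4 kidneys (percent, log axis) against mean share of signal (percent, log axis) for the 207 miRNAs detected on all 4 arrays, 1 point each. The cloud rises to the left, towards dim miRNAs, and miR-451, miR-21 and miR-690 stand out on the bright side with CVs of 121%, 30.8% and 48.9%.

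Kidneys 1 and 4 were the most alike. Across the 207 miRNAs, which are not independent replicates, Pearson's r of log2 shares was 0.993 for that pair, and 1 miRNA differed by at least 2-fold. The other pairs gave 0.963 to 0.981 with 10 to 22 such miRNAs. Set against the mean log2 share of the other 3, kidney 4 had no miRNA at least 2-fold away. Kidney 2 had 6 above, which were miR-451, miR-486, miR-142-3p, miR-210, miR-193 and miR-96, and 1 below, miR-342-3p. Kidney 3 had 18 below and 1 above, and kidney 1 had 12 above and none below. Slide row 2 (kidneys 3 and 4) minus row 1 (kidneys 1 and 2) had a median log2 difference of 0.0023 over the 207 miRNAs, and a median absolute difference of 0.14; with 2 arrays a row it was not tested.

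The 18 miRNAs low in kidney 3 were mostly dim, with a median mean share of 0.0505%, and few of them are well studied. The brightest apart from miR-451 was miR-690, with shares of 0.839%, 1.13%, 0.240% and 0.953%. Kidney 3 lay 4.03-fold below the others. miR-681 (0.0601%, 0.0377%, 0.00978% and 0.0376%) was 4.50-fold lower there, and miR-671-5p ran at 0.186%, 0.0843%, 0.0439% and 0.111%, highest in kidney 1 and lowest in kidney 3. miR-709, a bright name outside this set, had 2.00%, 1.63%, 1.17% and 1.74%, the same order of the extremes. The kidney 1 and kidney 3 contrasts share arrays, so names found in both are not counted here as a result. Of the 18, 15 had a sequence, with a median GC content of 54.5%. Shown are miR-705, which had the highest (75%), miR-706, which shared the lowest (36.4%) with miR-451, and miR-690, with the seed in capitals.
miR-705: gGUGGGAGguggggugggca
miR-706: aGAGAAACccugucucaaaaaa
miR-690: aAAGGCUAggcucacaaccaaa
Among the 168 miRNAs with a sequence, 20 had a GC content of at least 60%. Their median log2 difference from the mean of the 4 kidneys was 0.26 in kidney 1 and -0.12 in kidney 3, against -0.02 and 0.02 for the other 148. Pearson's r of GC content with the difference was 0.37 in kidney 1, -0.15 in kidney 2, -0.25 in kidney 3 and 0.18 in kidney 4, across miRNAs and so without a test. The part of base content in these values was not tested further.

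The array also carried 39 names of viral miRNAs, from mouse cytomegalovirus and a mouse gammaherpesvirus, which serve as names foreign to the kidney. Of these, 3 (7.69%) were well above background on all 4 arrays. Their log2 difference from the mean of the 4 kidneys was between 0.92 and 1.09 in kidney 1 and between -1.29 and -0.82 in kidney 3. They were thus high and low in the same kidneys as most of that set. Their mean signal was up to 0.0492% of the mouse total, and 86 of the 207 detected mouse miRNAs lay at 0.1% or more, above this level. Some names of the set low in kidney 3 also lay above it, among them miR-690 (0.791%), miR-1895 (0.254%) and miR-671-5p (0.106%). The level therefore does not separate that set from the other names. The labels give no infection, and whether some mouse names also carry signal of another source was not tested.

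**Figure D5:**
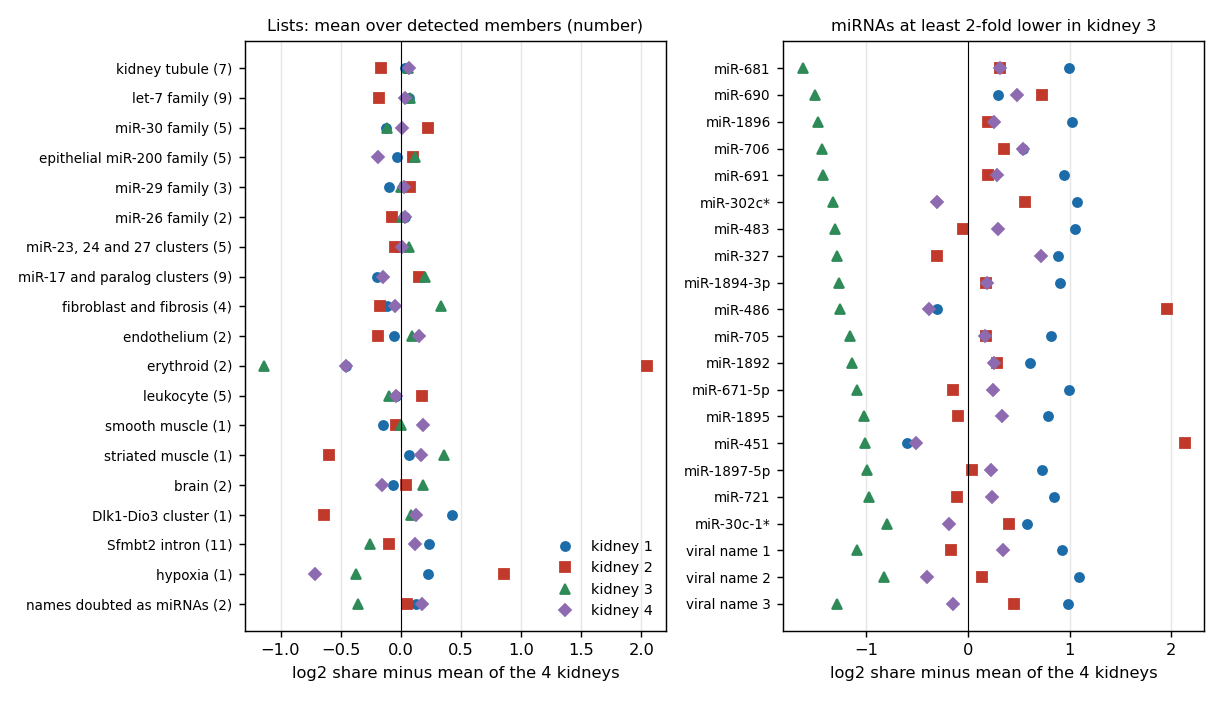
Log2 share in each kidney minus the mean of the 4. Left, the mean over the detected members of each list, with their number in brackets; right, the 18 miRNAs chosen for being at least 2-fold lower in kidney 3, and the 3 viral names. On the left the erythroid list of kidney 2 stands alone, and on the right kidney 1 is high and kidney 3 low for most names and for all 3 viral ones, while miR-486 and miR-451 are high in kidney 2.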

How the data were processed

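The 4 contralateral kidney arrays were described as 1 group with no comparison. The deposited values were spot intensities (processed signal with background subtracted). Per the file headers the software was Agilent Feature Extraction 10.7.3.1, whereas the submitters' processing notes name release 10.1.1. The deposited marks of 0 or 1 per spot gave outliers, saturation and signal well above background. The authors' series matrix held the same intensities, equal at all 13715 spots of each array, with no further scaling.

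Control spots and outlier spots (2.37% to 3.54% per array) were left out, spots of a probe averaged, probes of a miRNA summed, and shares taken of the mouse total. Negative sums were kept. The number of arrays limits the precision. The named miRNAs (129) were the 30 brightest, the 10 largest and 10 smallest CVs at a share of at least 0.1%, the 8 largest and 8 smallest strand ratios, up to 6 detected members of each list, the 12 brightest seed families, and the 5 dimmest detected and 5 brightest partly detected names. Others are named for a 2-fold deviation or as stated. The members and lists were chosen with earlier results of these data known. Array names were paired with RefSeq names partly by hand, from known renamings.

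The alternatives were other summaries, detection rules, scalings, background correction and left-out arrays. For normexp (limma 3.58.1, R 4.3.3) the median spot signal was used. Scripts were tested on simulated data. Tables were made in Python 3.11.15 using numpy 2.4.6 with pandas 2.3.3, and plots in matplotlib 3.10.9.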

Additional observations from a re-analysis of the deposited data

Results flagged for a closer look

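Of 139 sets of 4 values examined, 15 (10.8%) had 1 kidney that stood apart from the other 3 by Dixon's gap criterion. The chance rate of this criterion, about 1 in 20, cannot be set against that share. Some names were examined because their CV in these same values was large or small, and lists were examined beside their own members. Kidney 2 was the odd one in 11 of them, kidney 3 in 2, and kidneys 1 and 4 in 1 each. The sets are not independent, since shares of 1 array sum to a whole.

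Kidney 2 was high for miR-451 (7.71%, others 0.865% to 1.23%), miR-486 (0.0711%), miR-144 (0.0322%), and the erythroid list they form (7.81%, others 0.875% to 1.24%). It was also high for miR-142-3p (0.114%), miR-223 (0.186%) and miR-193 (0.275%, others 0.125% to 0.142%). It was low for let-7a (5.22%), the let-7 list (24.6%, others 29.1% to 29.8%), miR-26a (1.93%, others 2.08% to 2.11%) and miR-342-3p (0.0129%).

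Kidney 3 was high for miR-21 (9.90%, others 5.58% to 5.94%). The fibroblast and fibrosis list, of which miR-21 was the bulk, was also high there (10.6%, others 6.17% to 6.51%). Kidney 1 was low for miR-23a (1.53%, others 1.66% to 1.68%), and kidney 4 for miR-200b (1.60%, others 1.64% to 1.65%), both small differences in size.

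These values rest on the total. With miR-451 out of it, 9 of the 13 sets that could be recomputed still had the same kidney apart on the same side. The 4 that did not were miR-26a (2.11%, 2.09%, 2.10% and 2.13%), miR-23a (1.54%, 1.80%, 1.69% and 1.71%), miR-200b (1.66%, 1.78%, 1.66% and 1.62%, with kidney 2 now the highest) and the let-7 list (30.2%, 26.7%, 29.3% and 29.6%). In unscaled signal, 4 of the 15 remained apart, namely miR-451, miR-486, miR-144 and the erythroid list.

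Outside the mouse names, 3 viral miRNA names had signal well above background on all 4 arrays. The mean signals were 109 for mcmv-miR-M87-1, 140 for mcmv-miR-m01-2 and 117 for mghv-miR-M1-8, and each was highest in kidney 1 and lowest in kidney 3.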

How the results depend on the processing

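Of 138 recomputed values, 118 stayed within 1 SD or, for counts, 1.5 times. Shares and counts have no sign to turn. Some of the 118 had little or no room to move. The series matrix held the same intensities, and the SD of the miR-451 share (3.32) exceeded its mean (2.74%). Normexp background moved most values. The 10 brightest then held 37.4%, 19 miRNAs reached 50% of the signal, the let-7 family held 23.2% and the miR-30 family 4.51%, and the median SD of the log2 share was 0.62. In kidney 2 this correction gave 41.1% of the signal to miRNAs detected on no array, against 3.12% to 3.87% elsewhere. The cause was not tested. The miR-30 share was 4.69% with the mean of the probes and 4.61% with the summed gene signal of the software, so it depends on how probes are combined. The median SD was 0.22 with 75th percentile scaling, 0.33 without scaling, 0.24 with quantile normalization and 0.32 over all miRNAs with signal above 0. With miR-451 and miR-21 out of the total, chosen after seeing the data, the let-7 share was 31.1% and the miR-30 share 6.15%.

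Leaving out 1 kidney at a time gave 208 to 217 miRNAs detected on all remaining arrays, 45.5% to 46.9% in the 10 brightest, 12 to 13 miRNAs for 50%, 27.7% to 29.4% for let-7, 5.32% to 5.69% for miR-30, and a median SD of 0.18 to 0.21. miR-21 ranged from 5.74% (without kidney 3) to 7.18%, and miR-451 from 1.08% (without kidney 2) to 3.36%. Detection on all 4 arrays fell to 194 when every spot had to be marked and rose to 234 with the software's gene mark. No paired analysis was possible because no groups were compared. Dim miRNAs, near 0.01%, lie at the limit of detection.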
